A study of Mus musculus with 170 samples.

Results

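The mitochondrial genome transcripts are the 37 rows of the deposited expression table, out of 40549 gene rows, whose symbol starts with mt-. They comprise 13 protein-coding rows (mt-Nd, mt-Co, mt-Atp and mt-Cytb genes), 2 ribosomal RNA rows (mt-Rnr1 and mt-Rnr2) and 22 transfer RNA rows (mt-T genes). The set was chosen with earlier results of these data known, but its rows were taken by name and not by their values. They were measured by Smart-seq2, a full-length single-cell RNA-seq method primed on poly(A) tails, in cells picked by hand from dissected ventricles of mouse hearts at embryonic day 9.5. Control cells came from C57BL/6 embryos labelled wild type, which per the methods were Dgcr8 loxP/loxP; ROSA26 mT/mG/+ without Cre. The cKO cells were labelled Mesp1Cre/+; Dgcr8-/- on the same strain, and per the methods also carried the ROSA26 mT/mG reporter; Mesp1-Cre deletes in cardiovascular progenitors and their descendants, and Dgcr8 is a subunit of the microprocessor that cuts primary microRNAs. Values were analysed for 74 control cells (35 from batch 1 and 39 from batch 2) and 69 cKO cells (35 and 34). Batch is the number given in the titles, and the paper describes 2 sequencing batches. The labels assign no cell to an embryo, so each genotype was treated as 1 sample, cells are not replicates, no difference between genotypes was tested, and each SD is a spread across cells.

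Mitochondrial DNA is a small circle that encodes core subunits of the respiratory chain complexes, the RNAs of the mitochondrial ribosome and a full set of transfer RNAs. Both strands are transcribed as long precursors, which are cut largely at the transfer RNAs that lie between the other genes, and most of the messenger RNAs then receive short poly(A) tails. Most subunits of the same complexes are encoded in the nucleus, and in the embryonic heart the respiratory chain is built up as cardiomyocytes mature.

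The 37 genes lie between positions 1 and 15422 of chrM in mm10, the build of the GENCODE M21 annotation used here. The ribosomal RNA genes are 955 and 1582 bases long, the protein-coding genes 204 to 1824 bases and the transfer RNA genes 59 to 75 bases. Among the protein-coding genes 12 lie on the plus strand and 1, mt-Nd6, on the minus strand, whereas 8 of the 22 transfer RNA genes lie on the minus strand. The library preparation did not keep strand, so reads of overlapping or antisense genes cannot be told apart.

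Several members share sequence with each other or with nuclear copies, and 3 sets of sequence show what that means for the values. The first is the stretch of chrM:7927-7969, 43 bases on the plus strand, that belongs to both mt-Atp8 and mt-Atp6, which are read from a single messenger RNA. The capitals mark the start codon of mt-Atp6.
mt-Atp8 and mt-Atp6: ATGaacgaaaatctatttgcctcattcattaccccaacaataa

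The second set compares members with rows of nuclear pseudogenes. A block of 7 such rows lies on chromosome 1 between positions 24611535 and 24616197, on the minus strand. The rows Gm10925 (678 bases), Gm28661 (681 bases) and Gm28437 (783 bases) are identical at every base to mt-Atp6, mt-Co2 and mt-Co3 over their whole length. Gm29216 matches mt-Co1 from position 1054 to 1545 with 6 differences (T1056A, C1057T, A1059G, A1060G, C1062A and A1066T, with the base of mt-Co1 first and positions counted from the first base of the mt-Co1 transcript). Gm28438 differs from mt-Nd3 only by T3C. Capitals in the lines that follow mark the bases that differ, and each window holds all differences of its pair.
mt-Co1: ggTCtAAcCggaAttgttttatccaact
Gm29216: ggATtGGcAggaTttgttttatccaact
mt-Nd3: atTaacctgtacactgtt
Gm28438: atCaacctgtacactgtt

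The third set gives the 2 transfer RNAs with the highest mean value and the 2 whose values were highest in cKO relative to control among the 6 most abundant. Each is printed as the gene reads, with the anticodon in capitals; all 4 lie on the minus strand, at chrM:15356-15422 (mt-Tp, proline), chrM:6870-6938 (mt-Ts1, serine), chrM:3772-3842 (mt-Tq, glutamine) and chrM:5192-5257 (mt-Tc, cysteine). TPM divides by length, so on genes this short a few reads give a large value.
mt-Tp: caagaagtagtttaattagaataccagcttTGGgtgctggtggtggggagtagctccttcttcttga
mt-Ts1: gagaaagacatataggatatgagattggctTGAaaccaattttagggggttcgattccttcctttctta
mt-Tq: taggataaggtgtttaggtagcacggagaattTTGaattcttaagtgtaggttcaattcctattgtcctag
mt-Tc: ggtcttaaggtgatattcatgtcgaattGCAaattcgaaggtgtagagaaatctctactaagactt

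Cells were classed by clustering on 55 marker genes that include no mitochondrial row. The comparison of genotypes was made in 92 cardiomyocyte-like (CM-like) cells, which were highest in all 15 cardiomyocyte markers: 27 control cells (19 from batch 1 and 8 from batch 2) and 65 cKO cells (32 and 33). The other control cells fell into 22 endothelial-like cells, 5 erythroid-like cells, 13 unnamed cells led by epicardial and mesenchymal genes, and 7 cells of an unnamed class that also held the other 4 cKO cells. The summed level of the 15 cardiomyocyte markers in CM-like cells ran from 29217 through a median of 60101 to 102606 TPM in control and from 38829 through 87511 to 129428 TPM in cKO. The 13 endothelial markers summed to a median of 17.1 TPM in control (1.82 to 105) and 14.1 in cKO (2.76 to 207), the 14 mesenchymal markers to 2.56 (0.0445 to 123) and 4.24 (0.133 to 126), the 6 epicardial markers to 24.4 (0.306 to 494) and 32.7 (0 to 355), and the 7 erythroid markers to 1.34 (0 to 357) and 6.54 (0 to 483). Of the mesenchymal markers, 1 was at 0 in all control CM-like cells and 2 in all cKO CM-like cells, and no marker of the other lists was. Their part in the results that follow was not tested.

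The table gives Dgcr8 as a whole gene and not the deleted part, so its level does not check the genotype: it was above 0 in 17 of 27 control and 32 of 65 cKO CM-like cells, at 2.41 ± 2.89 and 1.71 ± 2.48 on the log2(TPM + 1) scale (mean ± SD across cells). Xist was at 1 TPM or more in 62 of 65 cKO and 0 of 27 control CM-like cells, and the Y-linked Ddx3y in 0 of 65 and 18 of 27. The genotype therefore cannot be told apart in these cells from the sex that these transcripts mark, or from differences between embryos. This holds for every difference between cKO and control given here.

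The mitochondrial share of each cell's TPM was lower in cKO than in control CM-like cells, at a median of 2.90% against 6.30%, which is 0.46 times the control value. In batch 1, control cells ran from 3.15% through a median of 6.30% to 41.1% (n = 19) and cKO cells from 1.57% through 3.11% to 10.8% (n = 32). In batch 2, control cells ran from 4.08% through 6.25% to 10.8% (n = 8) and cKO cells from 0.58% through 2.77% to 20.6% (n = 33). The groups overlapped in both batches, but 59 of 65 cKO cells lay below the control median, 36 of 65 lay below the lowest control cell, and 0 of 27 control cells lay below the cKO median. The means were 8.51% ± 7.89 (SD, n = 27 control cells) and 3.71% ± 3.39 (SD, n = 65 cKO cells), so the difference of the means was smaller than the spread across control cells, which a few cells with high shares widened.

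**Figure D1:**
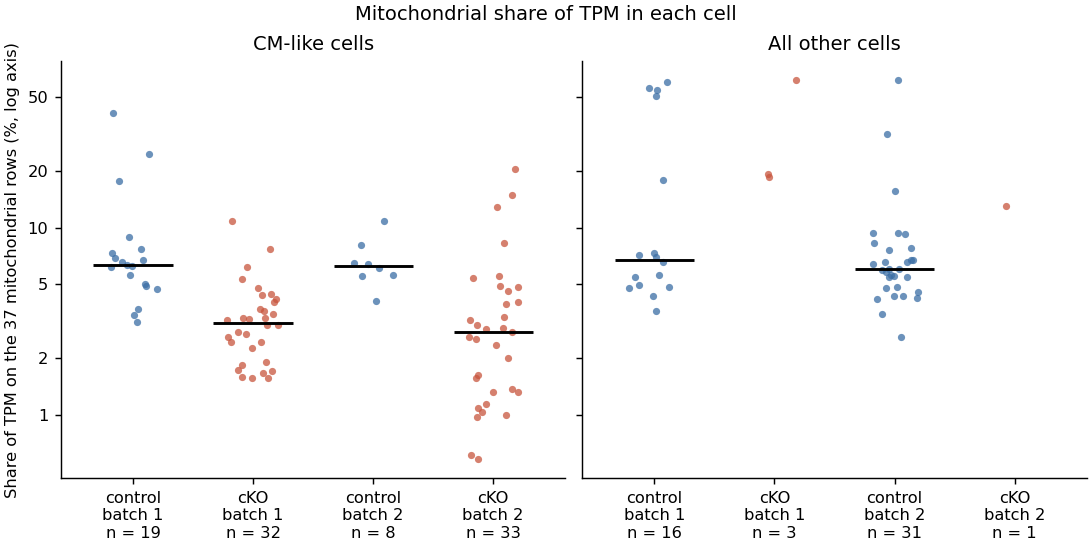
Share of TPM on the 37 mitochondrial rows (%, log axis) in each cell, by genotype and batch, for CM-like cells on the left and all other cells on the right; each point is 1 cell and the black line is the median of groups with more than 4 cells. In CM-like cells the cKO medians of 3.11% and 2.77% sit below the control medians of 6.30% and 6.25%.

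The share was also lower in cKO over all cells, with medians of 3.02% (n = 69) and 6.27% (n = 74). Within control, the median was 5.98% in the endothelial-like cells (4.19 to 9.39, n = 22) and 5.50% in the epicardial and mesenchymal cells (3.47 to 17.9, n = 13), close to that of CM-like cells, and the 5 erythroid-like cells ran from 2.60 to 15.7%. The unnamed class of 11 cells stood apart: its shares ran from 4.32% through 53.97% to 61.1% in 7 control cells and from 12.96% through 18.96% to 61.4% in 4 cKO cells. Mitochondrial rows led that class and its cells had fewer detected genes, at a median of 5705 in control and 5464 in cKO, against 9284 and 8696 in CM-like cells. A share of 10% or more was found in 4 of 27 control CM-like cells (14.8%, exact Clopper-Pearson 95% interval 4.19 to 33.7%) and 4 of 65 cKO CM-like cells (6.15%, 1.70 to 15.01%). The intervals cover counting error only and treat cells as independent, so they do not measure the uncertainty of a genotype and do not compare the genotypes. The title numbers (12 per genotype, 3 to 7 cells each), whose meaning the labels do not give, had median shares of 1.68% to 7.05% in cKO and 4.88% to 29.4% in control, and 11 of the 12 cKO medians lay below the lowest control one.

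The 3 kinds of transcript did not differ by the same factor. The protein-coding rows held a median of 4.95% of TPM in control and 1.91% in cKO CM-like cells, a ratio of 0.39. The ribosomal RNA rows held 1.16% and 0.61%, a ratio of 0.52, and the transfer RNA rows 0.24% and 0.20%, a ratio of 0.83. As parts of the mitochondrial TPM, protein-coding rows made up a median of 76.7% in control and 64.4% in cKO, ribosomal RNA rows 18.5% and 27.6%, and transfer RNA rows 3.64% and 6.05%. The spreads across cells were wide, with SDs of 10.4 and 11.3 percentage points for protein-coding rows and 10.5 and 12.5 for ribosomal RNA rows, and only 3 of 65 cKO cells lay above the highest control cell in their ribosomal RNA part.

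The size of this shift differed between batches. In batch 1 the ribosomal RNA part was 19.03% in control (13.7 to 50.8, n = 19) and 23.9% in cKO (12.1 to 36.02, n = 32), and in batch 2 it was 16.5% (12.7 to 44.2, n = 8) and 36.1% (6.88 to 64.9, n = 33). These are medians; by the mean, batch 1 gave 23.7% in control and 23.6% in cKO, a difference of -0.07 percentage points, and batch 2 gave 21.05% and 34.1%. The transfer RNA part differed more in batch 1, from 3.54% to 7.25% (control to cKO), than in batch 2, from 3.899% to 4.80%. Summing TPM over all cells of a genotype before taking the parts, which lets the cells with high shares count most, gave 28.1% in control and 29.3% in cKO for ribosomal RNA, a difference of 1.205 percentage points in place of 9.04 between the median cells. Multiplying each value by its row length, which approximates a share of reads, reduced the transfer RNA part to 0.24% in control and 0.42% in cKO and gave ribosomal RNA parts of 28.5% and 37.8%.

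**Figure D2:**
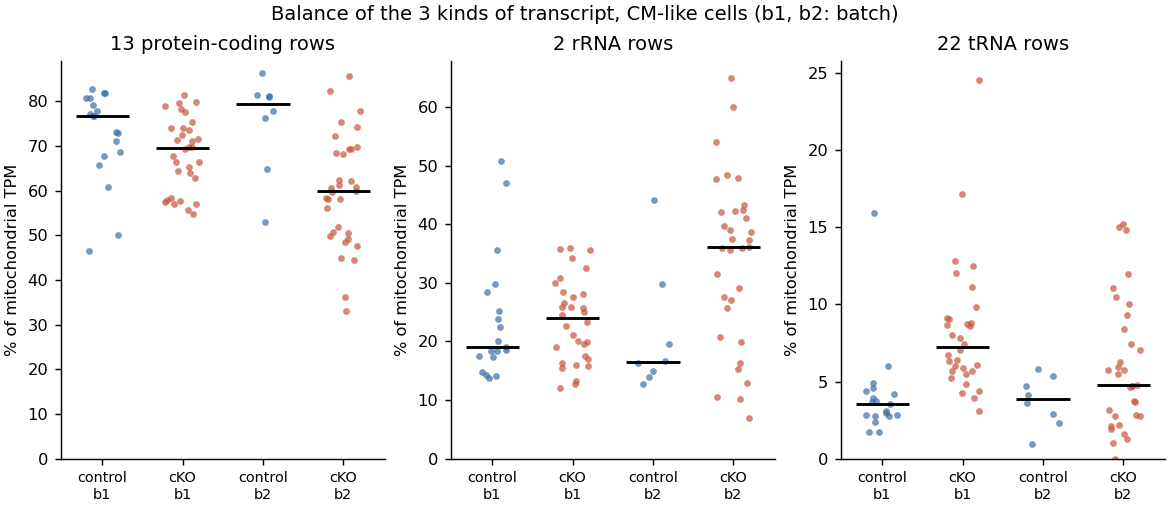
Percent of the mitochondrial TPM on protein-coding, ribosomal RNA and transfer RNA rows in each CM-like cell, by genotype and batch; each point is 1 cell and the black line is the group median. The ribosomal RNA median is higher in cKO by 4.91 percentage points in batch 1, where the means differ by -0.07, and by 19.6 in batch 2.

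To describe single members, the mean of log2(TPM + 1) over CM-like cells was compared between genotypes. A row was counted as past the fold when cKO minus control was at least 1 log2 unit in either direction over both batches and had the same sign in each batch, which is a rule of size and not a test. Of 15038 genes above 0 in more than 10 CM-like cells, 5.59% were past the fold lower in cKO and 7.03% higher. Of the 37 members, 31 passed the filter on low values (all 13 protein-coding, both ribosomal RNA and 16 transfer RNA rows), 10 were past the fold lower in cKO and 1 higher. Among the 412 genes with a mean of at least 8 log2 units, the range in which most protein-coding members lie, 33 were lower and 31 higher. The 33 lower genes include members and nuclear copies themselves, such as mt-Nd1 and Gm10925, so they are not a background free of the set.

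The protein-coding rows were lower as a group: 8 of 13 were past the fold lower, 0 were past it higher, and 11 of 13 had a negative difference in both batches. The share of all genes lower in both batches was not taken. The median difference of the 13 rows was -1.39 log2 units (-1.35 in batch 1 and -1.72 in batch 2), beside 0.07 (0.19 and -0.17) over all 15038 genes. The 412 genes with a mean of at least 8 log2 units had a median of -0.33 (-0.09 and -0.62). Across members the difference ran from -2.47 for mt-Atp8 to -0.19 for mt-Co2.

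Complex I, which takes electrons from NADH, has 7 mitochondrial subunits. mt-Nd1 had 3234, 12639 and 37503 TPM (lowest, median and highest of 27 control cells) and 367, 3422 and 20441 TPM in 65 cKO cells, a difference of -1.90 (-1.68 in batch 1 and -2.15 in batch 2). The groups overlapped, with 60 of 65 cKO cells below the control median. mt-Nd4 had 1346, 2834 and 10852 TPM in control and 80.8, 930.2 and 10583 TPM in cKO, a difference of -1.70 (-1.54 and -1.84); 48 of 65 cKO cells lay below the lowest control cell, the most of any single row.

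mt-Nd4l, which overlaps mt-Nd4 by 7 bases and shares its messenger RNA, was at 1486, 3900 and 14887 TPM in control and 0, 1190 and 7949 TPM in cKO, a difference of -2.07 (-1.55 and -2.79). The log2 ratio of mt-Nd4l to mt-Nd4 within a cell had a median of 0.37 in control and 0.36 in cKO, with 0.30 and 0.29 in batch 1 and 0.93 and 0.36 in batch 2. mt-Nd5 differed by -1.39 (-1.35 and -1.38), with medians of 1454 TPM in control and 669 TPM in cKO. The remaining complex I rows were smaller: mt-Nd3 differed by -1.07 (-0.33 and -1.72), mt-Nd6 by -0.89 (-1.01 and -0.44) and mt-Nd2 by -0.27 (-0.26 and -0.15). Among protein-coding rows with one sign in both batches mt-Nd2 had the smallest difference, with medians of 1259 and 1105 TPM and 38 of 65 cKO cells below the control median.

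The only mitochondrial subunit of complex III, cytochrome b, is encoded by mt-Cytb. It had 2778, 8261 and 33915 TPM in control and 302, 2164 and 14623 TPM in cKO, a difference of -1.98 (-1.79 and -2.01). In cKO 62 of 65 cells lay below the control median and 43 below the lowest control cell.

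Complex IV, cytochrome c oxidase, has its catalytic core encoded by mt-Co1, mt-Co2 and mt-Co3. mt-Co1 had 2797, 5201 and 27116 TPM in control and 322, 2122 and 15574 TPM in cKO, a difference of -1.59 (-1.44 and -1.63). The other pair did not pass the fold as deposited: mt-Co3 differed by -0.80 (-0.61 and -1.02) and mt-Co2 by -0.19, with opposite signs in the batches (-0.41 and 1.01). The values of mt-Co2 ran from 8.60 to 7866 TPM in control and from 0.314 to 7270 TPM in cKO, a wider range than that of mt-Co1.

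The ATP synthase rows split in the same manner. mt-Atp8 had 96.7, 3946 and 38227 TPM in control and 54.3, 596 and 15095 TPM in cKO, a difference of -2.47 (-2.20 and -2.62). mt-Atp6, which overlaps it, had 5.12, 2583 and 7235 TPM in control and 0.968, 1404 and 16354 TPM in cKO, a difference of -0.90 with opposite signs in the batches (0.22 and -2.36). The spread of mt-Atp6 over cells was wide, with an SD of 3.23 log2 units in the 27 control cells and 3.84 in the 65 cKO cells, whereas the median SD of the 13 rows was 1.19 and 1.31.

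**Figure D3:**
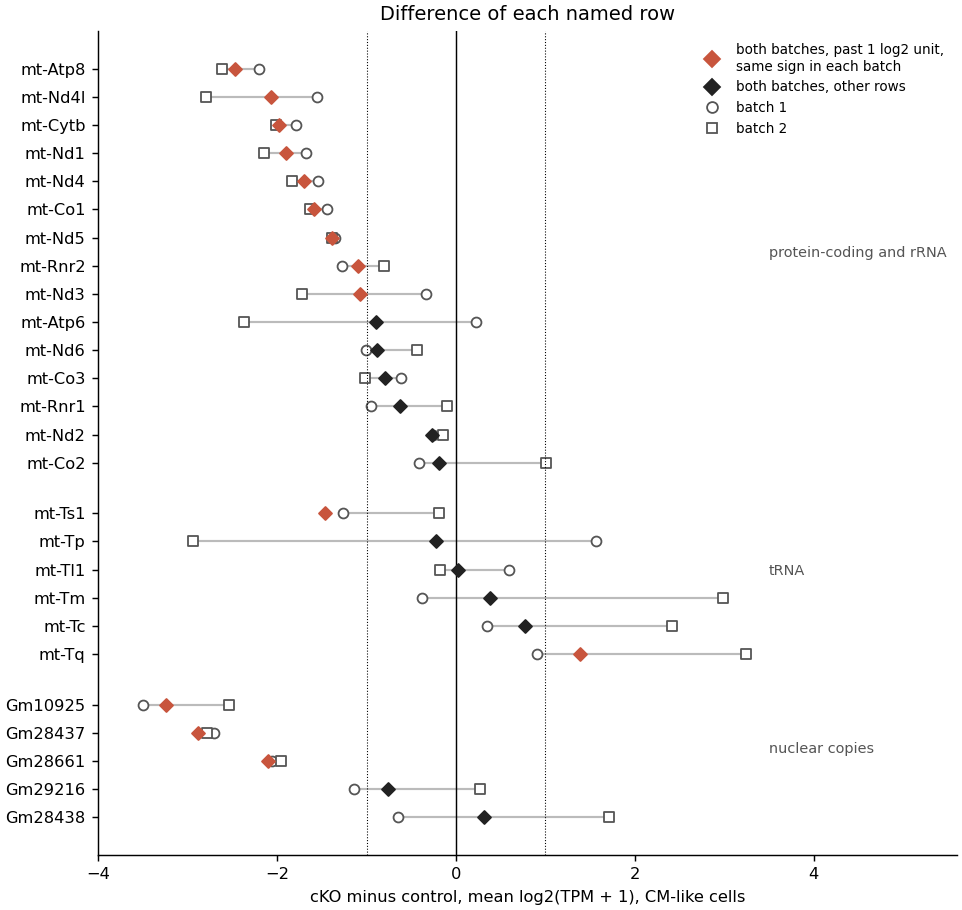
cKO minus control difference of mean log2(TPM + 1) in CM-like cells for the 15 protein-coding and ribosomal RNA rows, the 6 most abundant transfer RNA rows and 5 rows of nuclear copies; diamonds are both batches together (red where past the fold), open circles batch 1 and open squares batch 2. Most protein-coding rows lie left of -1 in each batch, whereas mt-Atp6, mt-Co2 and most transfer RNA rows have batch values far apart or of opposite sign.

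Rows of nuclear copies held much of the TPM that matches some members. Over all 143 cells the copy Gm10925 averaged 14986 TPM and mt-Atp6 3001 TPM, Gm28661 averaged 6854 TPM and mt-Co2 2606 TPM, and Gm28437 averaged 4228 TPM and mt-Co3 2925 TPM. Gm29216, the partial copy of mt-Co1, averaged 10168 TPM and mt-Co1 5654 TPM. Reads of identical sequence cannot be placed on one of the rows rather than the other, so the values of mt-Atp6, mt-Co1, mt-Co2, mt-Co3 and mt-Nd3, and those of the copies, are uncertain as deposited. The same holds for mt-Nd4l, which is identical to Gm10222 over the 294 bases of that row, and for mt-Nd4, identical to Gm28439 over 876 bases. mt-Atp8, 204 bases long, shares its last 43 bases with mt-Atp6 and so with Gm10925, which leaves its value uncertain to that extent. Gm28439 was at 0 in every cell, and Gm10222 was above 0 in 1 cKO CM-like cell, where it held 100% of the combined mt-Nd4l value; with it added, the batch 2 difference of mt-Nd4l was -2.56 in place of -2.79. Within a cell the division varied: the copy held between 10.2% and 99.9% of the combined mt-Atp6 value in control CM-like cells (median 85.1%) and up to 99.97% in cKO cells (median 70.7%).

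Adding each copy to its member, weighted by the length of the copy over that of the member, narrowed the spread of mt-Atp6, mt-Co2 and mt-Co3, whereas the SD of mt-Co1 went from 0.775 to 0.868 in control and from 1.14 to 1.06 in cKO. Combined mt-Atp6 had 3906, 14545 and 80589 TPM in control and 850, 3721 and 44766 TPM in cKO, a difference of -1.92 (-1.82 and -1.77), with SDs of 0.97 and 1.23 for the 2 genotypes. The log2 ratio of mt-Atp8 to combined mt-Atp6 within a cell had a median of -1.98 in control and -2.66 in cKO, with SDs of 0.92 and 0.99. By batch these medians were -1.98 and -2.69 in batch 1 and -2.01 and -2.36 in batch 2. Combined mt-Co2 had 3501, 7840 and 40623 TPM in control and 821, 3878 and 37912 TPM in cKO, a difference of -1.17 (-1.16 and -0.94). Combined mt-Co3 had medians of 5446 and 2492 TPM and a difference of -1.36 (-1.34 and -1.20), and combined mt-Co1 medians of 7415 and 3306 TPM and a difference of -1.35 (-1.37 and -1.10). mt-Atp6, mt-Co2 and mt-Co3, which had not passed the fold as deposited, passed it in this form.

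mt-Nd3 went the other way. Its copy Gm28438 held over 99% of the combined value in 1 of 27 control and 9 of 65 cKO CM-like cells, in which the mt-Nd3 row was at or near 0, and 0% in 21 of 27 and 47 of 65 cells. With the copy added, the difference was -0.34 (-0.25 and -0.22) in place of -1.07, which ended its place past the fold. With the copies added, 10 of 13 protein-coding genes were past the fold lower and all 13 were lower in both batches, again without a share of all genes lower in both. The smallest difference was -0.27 for mt-Nd2.

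**Figure D4:**
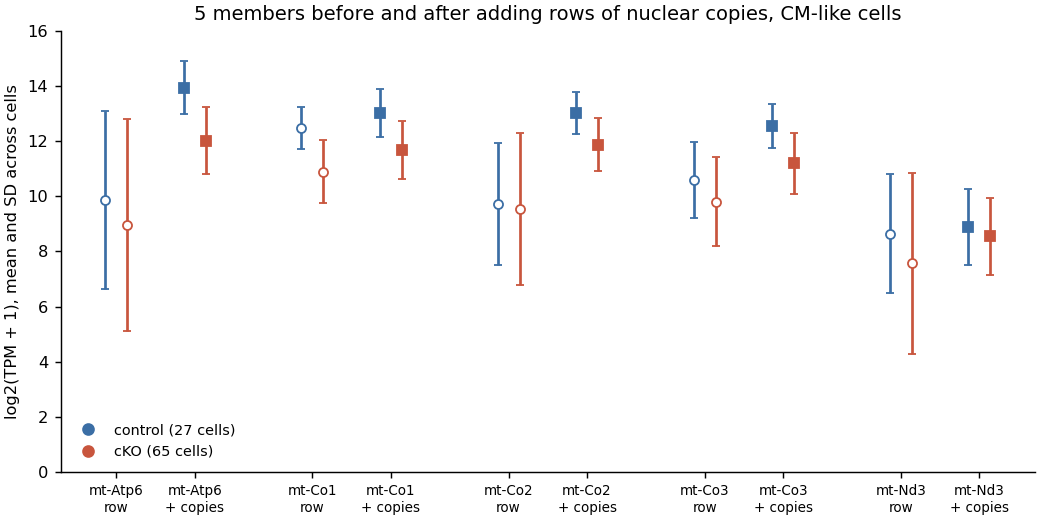
Mean log2(TPM + 1) with its SD across CM-like cells for 5 members, in control (blue, 27 cells) and cKO (red, 65 cells), as the deposited row (open circles) and with rows of nuclear copies added (filled squares). Adding the copies shortens the SD bars, except that of mt-Co1 in control, and, for mt-Atp6, mt-Co2 and mt-Co3, separates the genotype means by 1.92, 1.17 and 1.36 log2 units.

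The copies also add to the total. With the 9 listed copy rows counted as mitochondrial, the median share in CM-like cells was 8.98% in control (5.41 to 60.3) and 3.92% in cKO (0.937 to 35.3), and 45 of 65 cKO cells lay below the lowest control cell in place of 36. The copies held a median of 32.5% of the combined share in control and 26.2% in cKO. Over all cells the highest combined share was 93.9%, in a control cell.

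Protein-coding members varied together across cells. The Spearman correlation of a row with the sum of the other protein-coding rows in CM-like cells was 0.80 in control (n = 27) and 0.89 in cKO (n = 65) for mt-Nd4 and the same to 2 decimals for mt-Cytb, but 0.10 and 0.55 for mt-Atp6. With copies added it was 0.90 and 0.95 for mt-Atp6 and 0.82 and 0.89 for mt-Co2, which as a deposited row had 0.37 and 0.34. For other members the control value was lower with copies added, from 0.67 to 0.60 for mt-Nd1, from 0.58 to 0.50 for mt-Co1 and from 0.72 to 0.61 for mt-Nd4l. The ribosomal RNA rows followed the protein-coding sum less closely, at 0.26 and 0.38 for mt-Rnr1 and 0.55 and 0.62 for mt-Rnr2. These values describe cells that share a library preparation, and all rows of a cell share its depth and its TPM total.

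The ribosomal RNA rows were closer between genotypes than most protein-coding rows. mt-Rnr2, the RNA of the large mitochondrial ribosomal subunit, had 4449, 8499 and 156911 TPM in control and 1337, 4210 and 59137 TPM in cKO, a difference of -1.10 (-1.27 and -0.81), past the fold. mt-Rnr1, the RNA of the small subunit, had 1041, 2864 and 51762 TPM in control and 557, 1836 and 20812 TPM in cKO, a difference of -0.63 (-0.95 and -0.10). The log2 ratio of mt-Rnr2 to mt-Rnr1 within a cell was accordingly lower in cKO, with medians of 1.56 and 1.27 in batch 1 and 1.95 and 0.99 in batch 2 (control and cKO). The difference of the medians over both batches, -0.42, was about as large as the SD across cells (0.37 for control, 0.44 for cKO).

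Scaled to the mitochondrial total of each cell, which removes the difference in share, some rows as deposited were lower within the mitochondrial pool and others were higher. No SD was taken on this scale. mt-Atp8 differed by -1.19, mt-Nd4l by -1.001, mt-Cytb by -0.70, mt-Nd1 by -0.63, mt-Nd3 and mt-Nd4 by -0.43 each, mt-Co1 by -0.31 and mt-Nd5 by -0.11. On the higher side mt-Rnr2 differed by 0.18, mt-Atp6 by 0.30, mt-Nd6 by 0.39, mt-Co3 by 0.48, mt-Rnr1 by 0.65, mt-Nd2 by 1.01 and mt-Co2 by 1.03. Rows that have copies enter these values as deposited, without the copies. Before scaling, adding the copies moved mt-Atp6 from -0.90 to -1.92, mt-Co3 from -0.80 to -1.36, mt-Co2 from -0.19 to -1.17 and mt-Nd3 from -1.07 to -0.34. The side on which these rows fall may therefore depend on how reads were divided with the copies, and scaled values with copies were not taken. mt-Nd6, the protein-coding gene of the minus strand, made up a median of 2.48% of the protein-coding TPM in control and 4.85% in cKO. Its row overlaps that of mt-Nd5, and without strand its reads cannot be separated from plus-strand RNA that runs past mt-Nd5.

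The order of levels, read on the length-normalised TPM scale, was led by mt-Nd1 (13.56 ± 0.75 log2 units, SD across 27 cells), mt-Rnr2 (13.43 ± 1.14), mt-Cytb (12.91 ± 0.86) and mt-Co1 (12.49 ± 0.77) in control, neighbours that differed by less than their spread. In cKO the order was mt-Rnr2 (12.33 ± 1.07), mt-Nd1 (11.66 ± 1.31), mt-Rnr1 (11.12 ± 1.07), mt-Cytb (10.93 ± 1.29) and mt-Co1 (10.90 ± 1.14), so that mt-Rnr1 stood at rank 3 of 15 in place of rank 7. With its copy added, mt-Atp6 reached 13.94 ± 0.97 in control and 12.03 ± 1.23 in cKO.

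The transfer RNA rows were sparse. A CM-like cell had a median of 6 transfer RNA rows above 0 in control (2 to 20) and 7 in cKO (0 to 14) of 22. Their values were led by mt-Tp and mt-Ts1, with means of 1571 and 1025 TPM over all cells, followed by mt-Tl1 with 134 TPM. The 8 minus-strand genes held a median of 91.2% of transfer RNA TPM in control and 85.6% in cKO. mt-Ts1 overlaps the end of mt-Co1 by 3 bases on the other strand, and without strand its reads cannot be separated from plus-strand RNA that runs past mt-Co1.

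mt-Ts1 had 0, 872 and 8772 TPM in control and 0, 380 and 3726 TPM in cKO, a difference of -1.47, past the fold. Its values within batches were smaller (-1.27 and -0.19), because control and cKO cells were spread unequally over the batches and batch 2 was lower in both genotypes (medians of 153 and 112 TPM, against 1112 and 453 in batch 1). Averaging the differences of the batches gave -0.73, which ended the call. mt-Tp had 0, 735 and 8004 TPM in control and 0, 732 and 7194 TPM in cKO, a difference of -0.22 with opposite signs in the batches (1.57 and -2.94).

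mt-Tq was the member past the fold higher in cKO. It was above 0 in 14 of 27 control and 43 of 65 cKO cells, with medians of 19.6 and 67.9 TPM and a difference of 1.38 (0.91 and 3.24). mt-Tc was above 0 in 13 of 27 and 37 of 65 cells and differed by 0.77 (0.35 and 2.41), mt-Tm differed by 0.38 (-0.38 and 2.99) and mt-Tl1 by 0.02 (0.60 and -0.18). With the mean of the 2 batch differences in place of the joint value, 5 transfer RNA rows were past the fold higher (mt-Tq, mt-Tc, mt-Tn, mt-Ty and mt-Ti, the last 3 named after their values were seen), beside 6.22% of all genes higher and 7.1% lower by that rule. The batch 2 values rest on 8 control cells, which had a median of 4 transfer RNA rows above 0.

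Nuclear genes of the same complexes were examined beside the members. Of 70 nuclear subunit genes, 0 were past the fold higher and 5 lower, beside the 7.03% and 5.59% of all genes. In both batches 46 were lower and 1 higher, without a share of all genes to set beside these counts. The median difference of the 70 genes was -0.50 (-0.23 in batch 1 and -0.79 in batch 2), smaller than the -1.39 of the 13 mitochondrial rows. The 412 genes with a mean of at least 8 log2 units, a level that not all of the 70 reach, had a median of -0.33 (-0.09 and -0.62). Genes that share cells are not independent, and neither contrast was tested. By complex the medians were -0.44 for 36 complex I genes (3 lower), -0.62 for 9 complex III genes, -0.45 for 10 complex IV genes and -0.64 for 15 ATP synthase genes (2 lower). When TPM of genes outside the mitochondrial set was rescaled without the mitochondrial rows, the median of the 70 genes was -0.58 with 9 lower, beside 6.2% of all genes, and without the copy rows as well -0.63 with 14 lower, beside 6.7%.

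The ends of these lists were as follows. In complex I, Ndufv2 differed by -1.19 and Ndufa8 by -1.11, and at the other end Ndufb4 by -0.36 and Ndufa5 by -0.27. In complex III, Uqcr10 differed by -0.996 and Uqcrb by -0.92, Uqcrh by -0.56 and Uqcrc1 by -0.43. In complex IV, Cox5a differed by -0.90 and Cox6b1 by -0.74, Cox7c by -0.43 and Cox8a by -0.30. Among the ATP synthase genes, Atp5e differed by -1.50 and Atp5g1, a subunit of the membrane ring, by -1.44, Atp5h by -0.47 and Atp5b, the catalytic beta subunit, by 0.08.

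Lists of genes that make or handle mitochondrial RNA had medians near 0 in batch 1 and below 0 in batch 2. Of 17 genes for transcription and replication of mitochondrial DNA, 3 were past the fold lower and 2 higher, beside the 5.59% and 7.03% of all genes, with a median of -0.46 (0.18 in batch 1 and -0.98 in batch 2). Mterf2 differed by -1.44 and Ssbp1, which binds single-stranded mitochondrial DNA, by -1.26, whereas Dguok, a mitochondrial deoxynucleoside kinase, differed by 1.04 and Polg, the catalytic subunit of the mitochondrial DNA polymerase, by 1.27. Of 29 genes for processing and stability of mitochondrial RNA, 4 were lower and 0 higher, beside the same shares, with a median of -0.49 (-0.01 and -1.34).

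Fastkd2, an RNA-binding protein needed for the large ribosomal subunit, differed by -1.86 (-1.55 and -1.97), and Trmu, which modifies mitochondrial transfer RNAs, by -1.22 (-1.60 and -0.54). At the other end Mtpap, the mitochondrial poly(A) polymerase, differed by 0.80 and Trit1, another transfer RNA-modifying enzyme, by 0.54. Of 9 regulators of mitochondrial biogenesis, 1 was higher and 0 lower, beside 7.03% and 5.59% of all genes, with a median of -0.21 (0.01 and -1.04). Ppargc1a and Gabpb1 differed by -0.52 and -0.51, and Nrf1 by 0.81 and Ppargc1b by 1.12.

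Parts of the mitochondrial pattern moved with the number of detected genes. All cells were divided into 3 bins of like size by the number of non-mitochondrial genes above 0: a low bin of 2040 to 7874, a middle bin of 7891 to 9563 and a high bin of 9578 to 14121 genes. In CM-like cells the share was 8.30% in control (n = 6) and 2.69% in cKO (n = 21) in the low bin, 6.18% (n = 12) and 2.77% (n = 21) in the middle bin, and 6.09% (n = 9) and 3.19% (n = 23) in the high bin (medians). The lower share of cKO cells was thus present in each bin, and also in each batch within each bin, although batch 2 gave only 1 control cell to the low bin and 2 cKO cells to the high bin.

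The ribosomal RNA part did not keep its difference across the bins. Its medians were 18.7% in control and 38.7% in cKO in the low bin, 18.4% and 26.5% in the middle bin, and 19.6% and 21.1% in the high bin, where the SDs across cells were 6.81 and 6.61 percentage points. In cKO CM-like cells the ribosomal RNA part correlated with the number of detected genes at a Pearson r of -0.60 and a Spearman rho of -0.54 (n = 65; r = -0.52 without the 2 cells farthest from the median number). The relation was found in batch 2 (r = -0.62, rho = -0.57, n = 33) and was weak in batch 1 (r = -0.15, rho = -0.16, n = 32). In control CM-like cells r was -0.33 and rho -0.19 (n = 27), with -0.02 and 0.04 in batch 1 (n = 19) and -0.76 and -0.10 in batch 2 (n = 8). Without the 2 cells farthest from the median number, r was -0.13 over both batches and 0.73 in batch 2, so these control values of r rest on those cells.

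The transfer RNA part kept a difference in the high bin, with medians of 3.76% in control and 7.43% in cKO. Over all control cells the share itself correlated with detected genes at r = -0.59 and rho = -0.46 (n = 74), and over all cKO cells at r = -0.32 and rho = -0.11 (n = 69). Within CM-like cells these values were -0.33 and -0.39 in control and -0.15 and 0.05 in cKO. Detected genes differed in opposite directions between batches, with medians of 8439 in control and 9856 in cKO in batch 1 and 9686 and 7768 in batch 2.

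**Figure D5:**
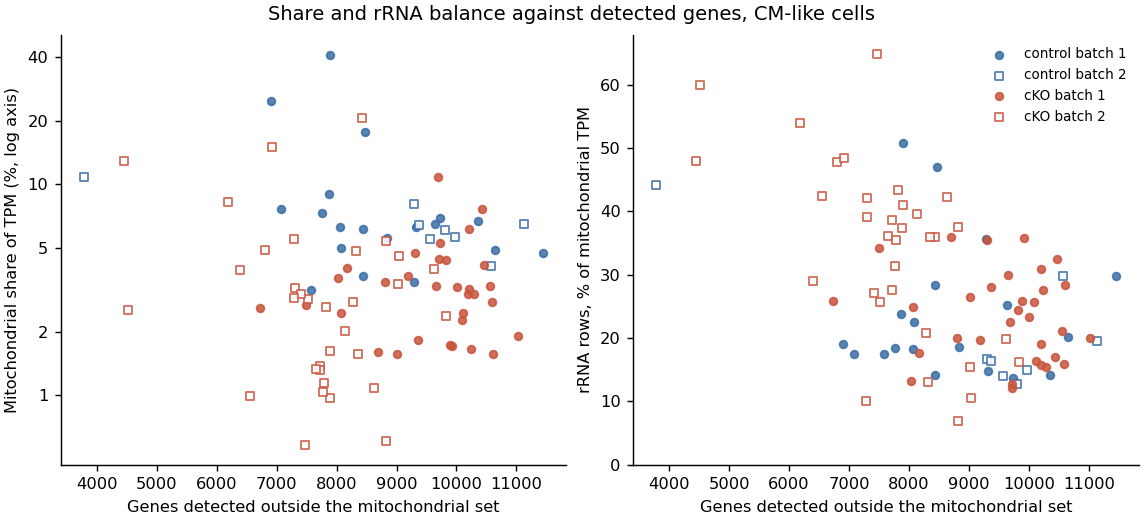
Mitochondrial share of TPM (%, log axis, left) and ribosomal RNA part of the mitochondrial TPM (%, right) against the number of genes detected outside the mitochondrial set, for CM-like cells; each point is 1 cell, filled circles are batch 1 and open squares batch 2, control in blue and cKO in red. cKO cells sit lower on the left at like numbers of genes, and the high ribosomal RNA parts on the right are mostly cKO cells of batch 2 with fewer detected genes.

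Genes induced by cell dissociation were read beside these values. Of 12 such genes 11 passed the filter, 2 were past the fold higher and 1 lower in cKO, beside 7.03% and 5.59% of all genes, with a median of 0.49 (-0.02 in batch 1 and 0.42 in batch 2). Atf3 differed by 2.33 and Jun by 1.75, whereas Junb differed by -1.29 and Ier2 by -0.90. Of the marker lists, the 15 cardiomyocyte markers had a median of 0.48 with 2 higher and 1 lower (Myl3 differed by -2.41, Smpx by -0.42, Ttn by 1.33 and Ryr2 by 1.67). The 13 endothelial, 9 mesenchymal, 4 epicardial and 4 erythroid markers that passed had medians of -0.04, -0.04, 0.22 and 0.44, with 0 past the fold. The paper states that cKO cardiomyocytes came apart more readily than control ones, which tended to stay clustered, and that distinct single cells were picked. The part of dissociation, of picking and of other cell types in the mitochondrial values was not tested.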

How the data were processed

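Single cells were sequenced by Smart-seq2 in 2 batches. The authors quantified reads with Salmon against mm10 with GFP and tdTomato added, and deposited TPM per gene and cell; the Salmon version is not given in the sources used here. The study removed cells with low mapping rates and cells whose reporter contradicted their genotype. TPM sum to 996133 to 999999 in each cell, so values are relative and the depth behind them is unknown. Of 170 labelled samples 143 had a column, and the other 27 were not analysed here; 0 columns were left unmapped.

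The members and all gene lists were chosen with earlier results of these data known. Cells were grouped by genotype from the titles and classed by Ward clustering of log2(TPM + 1) of 55 markers into 5 clusters; a cluster was named where its markers led it. Doublets were not called. Differences are cKO minus control of mean log2(TPM + 1), with a pseudocount of 1, over genes above 0 in more than 10 CM-like cells. This scale understates changes of low genes. With 1 sample per genotype no test was made and no p-value is given. The named genes are all protein-coding and rRNA members, the 6 tRNA rows with the highest mean and any past the fold, nuclear copies with a mean of at least 1 TPM, and from each nuclear list the 2 largest and 2 smallest differences among genes with 1 sign in both batches. Nuclear copies were rows sharing at least 100 words of 31 bases with a member in GENCODE M21 transcripts, and 12 were found. The copy row Gm13341, at 1.25 TPM on average, differed by -0.55. The difference script was tested on simulated data. Alternatives covered the pseudocount, filter, cluster number, clustering genes, batch, detected genes and treatment of copies. Tools were Python 3.11.15, numpy 2.4.6, pandas 2.3.3, scipy 1.17.1 and matplotlib 3.10.9.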

Additional observations from a re-analysis of the deposited data

How the results depend on the processing

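No paired analysis was possible because titles number single cells, not paired samples, and nothing was tested. A value was counted as moved when it shifted by at least 1 SD across cells, and a count when it changed by more than 1.5 times. The median share in CM-like cells stayed lower in cKO under all 10 alternatives, with differences of -5.06 to -2.89 percentage points, and over all cells under all 5, with -5.75 to -3.01; the difference in the ribosomal RNA part ran from 1.205 to 19.6 percentage points over 10 alternatives, the highest in batch 2. With 6 clusters the CM-like class held the same 92 cells, so that alternative could only repeat the main values. The batches, the cells with at least 6000 detected genes and the high bin are subsets of those cells. The rRNA ratio differed by -0.96 in batch 2. The median difference of the protein-coding rows was -0.31 relative to the mitochondrial total, and mt-Rnr2 then differed by 0.18 in place of -1.10. Rows past the fold lower numbered 9 to 15, the most with 4 clusters, which placed the unnamed class of 11 cells among the CM-like cells. Rows past the fold higher numbered 4 with a pseudocount of 0.1, 0 with a pseudocount of 10, 0 with 4 clusters, and 5 with the mean of the 2 batch differences. By that last rule 7.1% of all genes were lower and 6.22% higher. The shares of all genes under the other pseudocounts and cluster numbers were not taken. The alternatives that add copies to single members or to the balance, use the cells with most detected genes, weight by row length or average the batches were chosen after seeing the data. The cause of these movements was not tested. Low transfer RNA values rest on few reads, and without counts their error cannot be given.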
